A study of Mus musculus with 14 samples.

Results

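The 6 arrays compared here set the leukemic cells of 2 mice with early T cell precursor acute lymphoblastic leukemia (ETP-ALL) against non-leukemic DN1 thymocytes, and ask which early-progenitor, NK, B lineage and myeloid genes of DN1 cells the leukemias share. They were chosen by their labels from the 14 arrays of the series. The leukemic cells came from Ezh2Δ/Δp53Δ/Δ (double-deleted) mice with the mouse numbers 13 and 19 and were sorted as CD4-CD8-CD44+CD25+ cells, which is the DN2 gate. The 4 DN1 arrays hold CD4-CD8-CD44+CD25- cells, 1 array each of WT, Ezh2Δ/Δ, p53Δ/Δ and double-deleted donors. In every group, bone marrow of C57BL/6 background with a Cre-ERT2 transgene had been transplanted into CD45.1+ wild-type mice after lethal irradiation, so WT cells carry Cre as well, while the deleted genotypes add floxed alleles of Ezh2, of p53 (the gene Trp53) or of both. Deletion followed 4 weeks after transplantation. The DN1 cells were sorted from the recipients' thymus 3 months after transplantation, and no time is given for the leukemic cells. The labels do not tell whether a DN1 array holds 1 mouse or several.

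DN1 thymocytes are the earliest and most mixed of the CD4-CD8- stages. The gate contains early thymic progenitors, which still express stem cell and progenitor genes such as Kit, Lyl1, Lmo2 and Bcl11a and can give rise to myeloid and dendritic cells, and beside them it holds NK cells, innate-like and gamma delta T cells and some B cells. ETP-ALL is the form of T cell leukemia defined by a likeness to early thymic progenitors, with stem cell and myeloid genes beside a limited set of T lineage genes. EZH2 methylates histone H3 as part of a Polycomb complex, PRC2, that keeps developmental genes silent, and p53 arrests or kills damaged cells.

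A level is given as the log2 of a probe's processed signal minus the log2 of the 75th percentile of its array, so 0 is the signal of a probe at that percentile, and levels are compared between arrays and never between probes. The 4 DN1 values of a gene are always given as WT first, then the Ezh2-deleted, the p53-deleted and last the double-deleted array, and DN2 values likewise. The 75th percentile itself lay between 102 and 524 intensity units on the 6 arrays, and between 43.0% and 50.4% of their probes were well above background, with 0 saturated. Both leukemic arrays were on a slide of their own, so leukemia and slide cannot be told apart. The Ezh2-deleted and p53-deleted DN1 arrays shared a slide with low signal (102 and 123 intensity units), and 1717 features (6.93%) were below background on these 2 arrays and above it on the other 2 DN1 arrays. The Ezh2-deleted DN1 array also lacked the signal of Y-linked genes that the other 5 arrays had, with Ddx3y at 1.53 and 0.71 in the leukemias, against 2.10, -5.33, 1.06 and 1.39 in DN1 cells. Across 24779 features the leukemias correlated at 0.948 with each other, at 0.922 and 0.932 with double-deleted DN1 cells and at 0.844 to 0.888 with the other DN1 arrays. With non-leukemic DN2 cells they correlated at 0.929 and 0.947 for the double-deleted array and at 0.884 to 0.916 for the others. Among the DN1 arrays, p53-deleted cells had the lowest median level of progenitor and erythroid genes and Ezh2-deleted cells the highest of B lineage genes.

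The targeted genes were checked first. Trp53 was at -5.86 in the leukemia of mouse 13 and -3.30 in that of mouse 19, against 0.11, 0.68, -3.49 and -3.86 in DN1 cells. The 4 arrays labelled as p53-deleted therefore all lay below the 2 with intact p53. The Ezh2 probe read 2.74 and 3.62 in the leukemias, against 2.36, 2.78, 3.61 and 3.83, and does not separate the labels, so it checks no deletion. Cdkn2a, a cell cycle inhibitor silenced by PRC2, was at 6.72 and 7.25 in the leukemias, against -3.05, 1.1, 6.56 and 5.46 in DN1 cells, with a wide spread among the DN1 genotypes.

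The markers of the gate and of ETP-ALL came next. Il2ra, which encodes CD25, was 6.72 and 6.39 in the leukemias, against 0.52, 2.35, 0.91 and 2.59 in DN1 cells, a difference of 4.96 ± 0.69 (SE, log2; adjusted p = 0.0271). The sort set this difference, since it required CD25 in the leukemic cells and its absence in DN1 cells. Ly6a encodes Sca-1, a surface protein of blood stem cells and early progenitors. It was 7.13 and 7.63 in the leukemias, against 3.97, 5.41, 4.72 and 3.32 in DN1 cells, and both leukemias lay above every DN1 array and above the 4 non-leukemic DN2 arrays, which held 2.82, 4.41, 4.38 and 2.42. The difference from DN1 was 3.02 ± 0.64 (SE) and missed the threshold (adjusted p = 0.0896). Cd44, the adhesion receptor used in both gates, was 0.68 and 1.56 in the leukemias, against 2.93, 3.79, 2.86 and 2.67 in DN1 cells (difference -1.94 ± 0.52, SE; adjusted p = 0.166). Cd3e, part of the T cell receptor complex, was high on all 6 arrays, at 7.002 and 6.774 in the leukemias, against 6.64, 8.29, 7.89 and 6.72.

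In the comparison over all features, 70 were higher and 134 lower in ETP-ALL at an adjusted p under 0.05, which is 0.823% of the 24779 tested (0.282% higher, 0.541% lower), and 2805 had an unadjusted p under 0.05. Among 13507 named genes, 28 (0.207%) were called higher and 81 (0.6%) lower. The median difference over all features was 0.05. All 81 named genes called lower were above background on the 4 DN1 arrays, and 53 of them were above background in neither leukemia. Of the 28 called higher, 15 were above background on no DN1 array.

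**Figure D1:**
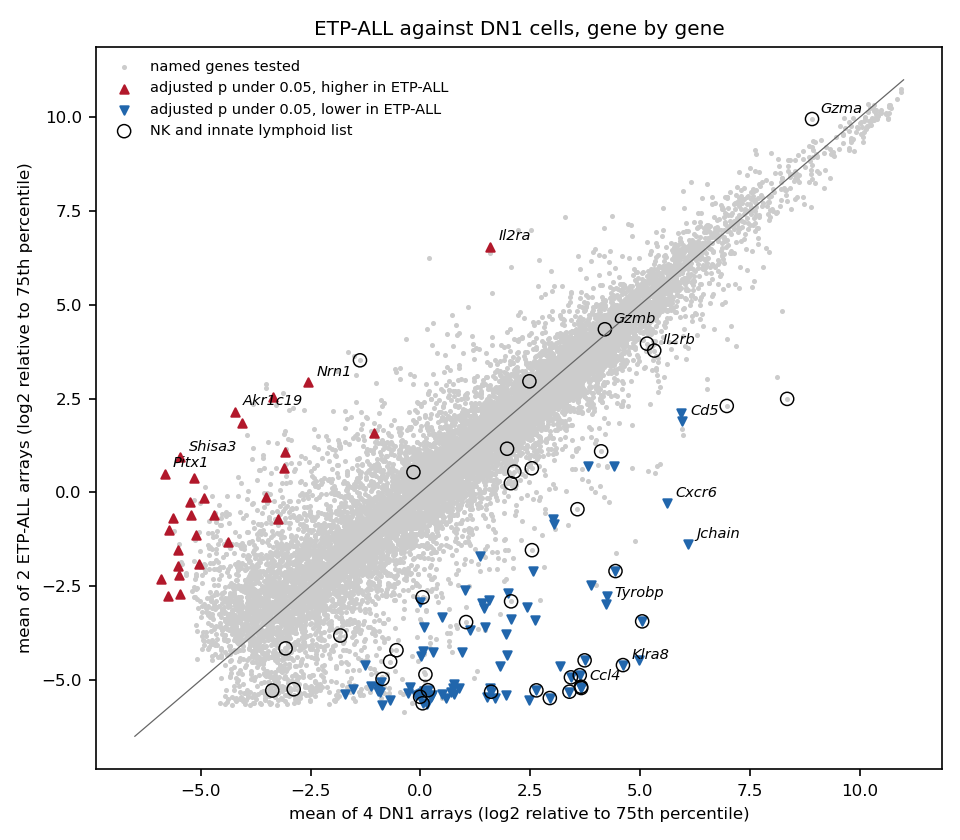
Mean level of each named gene over the 2 ETP-ALL arrays (vertical axis) against its mean over the 4 DN1 arrays (horizontal axis), both in log2 signal relative to the array's 75th percentile, with the line of equal levels. Red and blue triangles mark genes called higher and lower in ETP-ALL at an adjusted p under 0.05, and rings mark the NK and innate lymphoid list, most of which lies far below the line while Gzma lies near it at the top right.

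The 4 DN1 arrays are 4 genotypes, so a p-value here weighs the difference against the spread over genotypes, and the number of calls rested on few arrays. With slide as a random block 0 features were called by limma (1434 at an unadjusted p under 0.05), as were 0 without WT DN1 (3778 unadjusted), 4 without mouse 13 and 7 without mouse 19, where the remaining leukemia is assumed to vary like the other arrays. With the 2 DN1 arrays of the dim slide left out, 81 features were called, 46 of them among the 204.

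Most genes that DN1 cells express were also detected in the leukemias. Of 11963 named genes above background on at least 3 DN1 arrays, 10939 (91.4%) were above background in both leukemias and 360 (3.01%) in neither. Both leukemias lay at or above the lowest DN1 array for 7798 genes (65.2%) and below all DN1 arrays for 1793 (15%). These shares are the background for the gene lists below, where only members above background on at least 3 DN1 arrays are counted as DN1 genes. Sharing was least for the NK list, as the plot of detection by list shows.

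**Figure D2:**
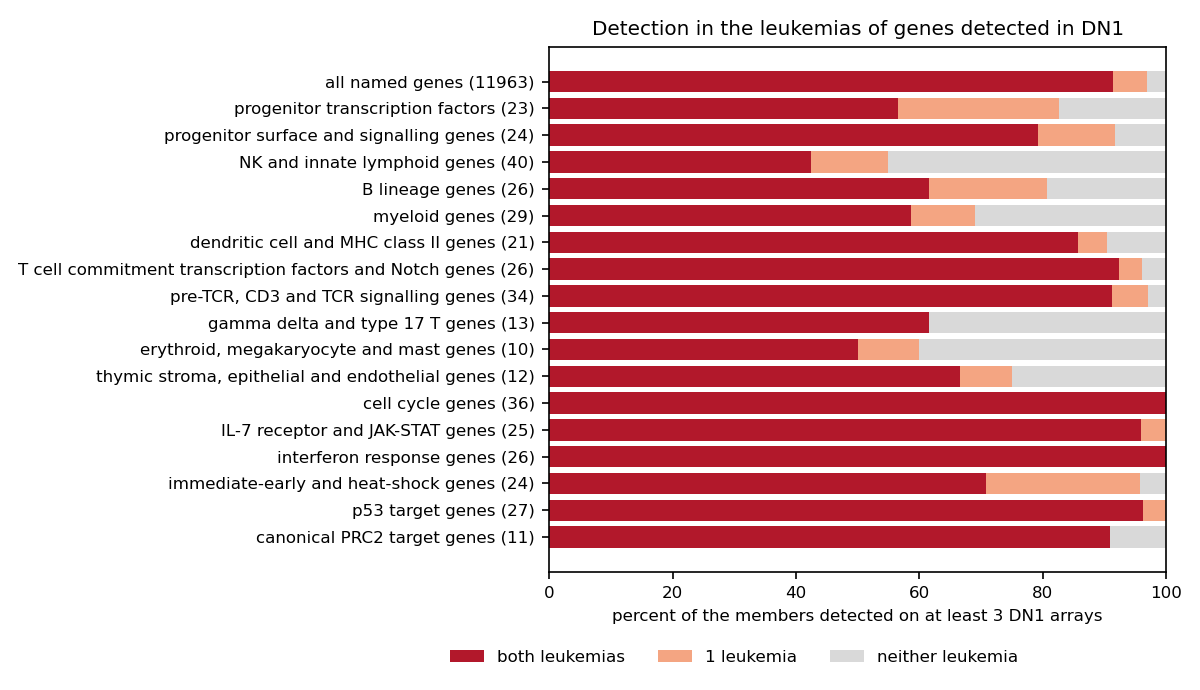
Share of the DN1 genes of each list (number in brackets, genes above background on at least 3 DN1 arrays) that were above background in both leukemias, in 1 or in neither, in percent. Both leukemias detected 91.4% of all named genes of this kind, 42.5% of those of the NK and innate lymphoid list, and every one of the cell cycle and interferon lists.

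Genes of NK cells were compared first. Of 45 genes listed, 42 were tested, 15 were called lower and 0 higher (background 0.6% and 0.207% of named genes), 29 were lower and 0 higher at an unadjusted p under 0.05, and both leukemias lay below all 4 DN1 arrays for 29 of the 42 (against 11.9% of all features). The median difference was -4.10, or -3.58 with genes not above background in the leukemias set at their bounds, against 0.05 over all features. It was -2.63 with normexp background correction and -1.815 among features above background on all 6 arrays. The median level of the list was -3.58 and -3.15 in the leukemias, and on the non-leukemic DN2 arrays it was -3.32, -0.53, 0.58 and -3.17. The leukemias were sorted by the DN2 gate, and the WT and double-deleted DN2 arrays lay at their level. The difference from DN2 was not tested. Of the 40 that DN1 cells expressed, 18 were above background in neither leukemia (45%, against 3.01% of all genes), and 29 lay below all 4 DN1 arrays in both (72.5%, against 15%). With the stricter rule of all 4 DN1 arrays above background, both leukemias detected 17 of 38, against 94.7% of all such genes. A gene passed the filter if it was above background on any 2 of the 6 arrays, so many of these passed through DN1 cells alone and had to differ, and their number supports nothing by itself. Among features above background on all 6 arrays, 4 NK genes were called lower. Without either leukemia, without WT DN1 or with slide as a random block 0 NK genes were called, and 2 were called without the 2 DN1 arrays of the dim slide. The largest differences were in the Ly49 family, the Klra genes on chromosome 6, which encode lectin-like receptors for MHC class I on NK cells. The 200 bases before the start of 4 of them are shown for 3 of the members called lower and for Klra1, which was not called, with the build GRCm38.p6, all on the minus strand, from RefSeq. They were chosen after the values were seen. Capitals mark TTTCCTCTTTT, the longest stretch that the first 3 share. Klra8 and Klra7 have 2 RefSeq promoters each, and the windows shown were picked to give the longest shared stretch. The windows lie at chr6:130129899-130130098 (Klra8), chr6:130233323-130233522 (Klra7), chr6:130193113-130193312 (Klra9) and chr6:130386875-130387074 (Klra1).
Klra8: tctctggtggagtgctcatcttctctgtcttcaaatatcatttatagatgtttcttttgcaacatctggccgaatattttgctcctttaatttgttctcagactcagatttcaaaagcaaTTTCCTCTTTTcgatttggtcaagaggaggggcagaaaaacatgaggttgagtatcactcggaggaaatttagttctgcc
Klra7: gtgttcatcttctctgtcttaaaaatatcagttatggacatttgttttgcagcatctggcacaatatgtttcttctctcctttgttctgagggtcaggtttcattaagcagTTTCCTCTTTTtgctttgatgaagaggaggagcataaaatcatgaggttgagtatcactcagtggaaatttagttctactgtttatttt
Klra9: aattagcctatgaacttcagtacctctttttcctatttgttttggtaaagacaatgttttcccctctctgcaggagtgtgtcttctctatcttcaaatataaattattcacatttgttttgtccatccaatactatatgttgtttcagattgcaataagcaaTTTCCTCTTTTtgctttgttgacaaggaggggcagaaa
Klra1: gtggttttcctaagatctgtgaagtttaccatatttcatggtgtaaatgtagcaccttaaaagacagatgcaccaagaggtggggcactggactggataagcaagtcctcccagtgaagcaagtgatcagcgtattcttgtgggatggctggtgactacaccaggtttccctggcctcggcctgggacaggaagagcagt

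The stretch of 11 bases began 80, 89 and 38 bases before the start of Klra8, Klra7 and Klra9 and was not in the Klra1 window. Searched on both strands in the same window of 32851 RefSeq promoters, it was found in 38 (0.116%), belonging to 35 genes, among them Klra2, Klra3, Klra4, Klra6 and Klra17. Klra6 holds it and was not called (adjusted p = 0.260), and Klra16 is not among the 35. The Klra genes are close copies of one another, so shared letters are common among them and a probe may read more than 1 of them.

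The Ly49 members called lower were above background in neither leukemia. Where a gene was above background on no array of a group, its fold is a bound, taken against the higher of its own signal and the lowest signal well above background on each array, and written as "at least". Klra8, an activating receptor for a cytomegalovirus protein, was at -5.55 and -3.65 in the leukemias, against 5.98, 5.19, 5.13 and 2.15 in DN1 cells, and was at least 276-fold lower (adjusted p = 0.0198). Klra7 was at -5.65 and -4.98 against 4.57, 4.20, 3.24 and 1.57 (at least 119-fold lower, adjusted p = 0.0139). The lowest DN1 value of both genes was that of the double-deleted array, the genotype of the leukemias, and it still lay far above them. On the DN2 arrays Klra8 was at -5.01, -4.10, -2.72 and -0.73 and Klra7 at -5.09, -4.59, -2.67 and -4.90. Klra9 and Klra4, tested in the same list, were at least 139.6-fold and 70.5-fold lower, and Klra16, outside the list, at least 353-fold. Klra1 was not called and stood at 1.00 and 1.33 in the leukemias, against 3.50, 2.20, 1.40 and 0.80 in DN1 cells, within the range of the DN1 arrays (difference -0.81 ± 0.75, SE; adjusted p = 0.741).

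Receptors of NK cells outside the Ly49 family were also called lower. Klrb1c, which encodes the NK1.1 antigen, was at -5.54 and -4.89 in the leukemias, against 4.19, 5.16, 4.26 and 1.04 in DN1 cells (at least 143-fold lower, adjusted p = 0.0198). Klrd1 (CD94), the partner chain of the NKG2 receptors, was at -5.81 and -4.05 against 4.11, 4.27, 3.48 and 1.85 (at least 121-fold lower, adjusted p = 0.0139). On the DN2 arrays Klrb1c was at -5.03, -0.88, 0.79 and -5.81 and Klrd1 at -4.36, -3.76, -0.95 and -5.88, so the leukemias were not apart from all of these. Klrb1a, Klre1, Klrc1 and Klrk1 were also called lower, by at least 87.1-, 34.5-, 11.7- and 11.2-fold. Ncr1, which encodes NKp46 and marks NK cells, was above background in neither leukemia and at -2.64, 2.13, -0.63 and -2.30 in DN1 cells. The spread among DN1 arrays was wide and its difference was not called (at least 6.21-fold lower, adjusted p = 0.221).

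Signalling partners and secreted products followed. Tyrobp (DAP12) and Fcer1g are adaptors that couple NK and myeloid receptors to kinases. Tyrobp was at -3.02 and -2.91 in the leukemias, against 4.43, 6.07, 4.14 and 2.29 in DN1 cells (difference -7.20 ± 0.93, SE; adjusted p = 0.0250), and Fcer1g fell by 6.54 (adjusted p = 0.0489). Ccl4, a chemokine, was at -5.51 and -4.85 against 4.74, 4.81, 2.39 and 2.69 (at least 142-fold lower, adjusted p = 0.0127). Ifng, the interferon of NK and T cells, was at -1.91 and -4.96 against 6.66, 5.57, 4.76 and 3.20, and fell by 8.49 (adjusted p = 0.0255). In all 4 of these genes the groups were far apart, and the chemokine gene Xcl1 was lower by at least 142-fold as well.

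None of 3 transcription factors of the NK program was called. Eomes, which NK cells need to mature, was at -3.39 and -2.41 in the leukemias, against 2.34, 3.84, 1.13 and 0.95 in DN1 cells, and just missed the threshold (difference -4.97 ± 0.85, SE; adjusted p = 0.0501). Its relative Tbx21 (T-bet) was at -1.33 and 0.43 against 3.74, 5.10, 3.90 and 1.56 (adjusted p = 0.128). For both genes the leukemias lay below every DN1 array. Id2, an inhibitor of E proteins needed for NK and innate lymphoid cells, overlapped more, at 4.68 and 3.25 against 5.57, 5.55, 5.08 and 4.43 (adjusted p = 0.518).

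Of the 40 DN1 genes of the list, 6 (15%, against 65.2% of all genes) had both leukemias at or above the lowest DN1 array: Gzma, Gzmb, Klra1, Il17rb, Il1rl1 and Styk1. The last was above background in neither leukemia, and without the double-deleted DN1 array 3 were left. Gzma, a granzyme, was 9.96 and 9.95 in the leukemias, against 8.15, 9.11, 9.0 and 9.41 in DN1 cells, and 5.90, 9.04, 7.29 and 7.89 in DN2 cells. Gzmb, the main granzyme of cytotoxic cells, was 3.66 and 5.04 in the leukemias, against 4.96, 4.76, 4.24 and 2.84 in DN1 cells and 0.64, 0.55, 0.80 and 0.56 in DN2 cells. Both leukemias thus stood within or above the DN1 range of these genes and above all 4 DN2 arrays, the stage whose gate they were sorted by. Neither difference from DN1 was called (adjusted p = 0.499 and 0.959), and the difference from DN2 was not tested. With Klra1, 3 of the 40 genes were at DN1 levels and above all 4 DN2 arrays, near the 6.27% of all DN1 genes. Prf1, which encodes the pore protein that works with granzymes, was 0.92 and 0.19 against 2.44, 3.34, 2.22 and 0.57 in DN1 cells (adjusted p = 0.503). Il2rb, the shared receptor chain for IL-2 and IL-15, was 2.89 and 4.67 against 5.30, 6.80, 5.61 and 3.59 (adjusted p = 0.589).

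The summed signal of the NK list, in multiples of the array's 75th percentile, was 1111 and 1089 in the leukemias, against 1306, 2992, 1424 and 924 in DN1 cells. Without its brightest member on each array, it was 112 and 103 against 980, 1704, 912 and 241. That member was Gzma, except in WT and Ezh2-deleted DN1 cells, where it was Ccl5, so these sums leave out unlike genes. Among the defining markers, Ncr1 and Klrb1c were not above background in the leukemias and Eomes was. Cells were pooled on each array, so fewer NK cells and less RNA of these genes per cell cannot be told apart.

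**Figure D3:**
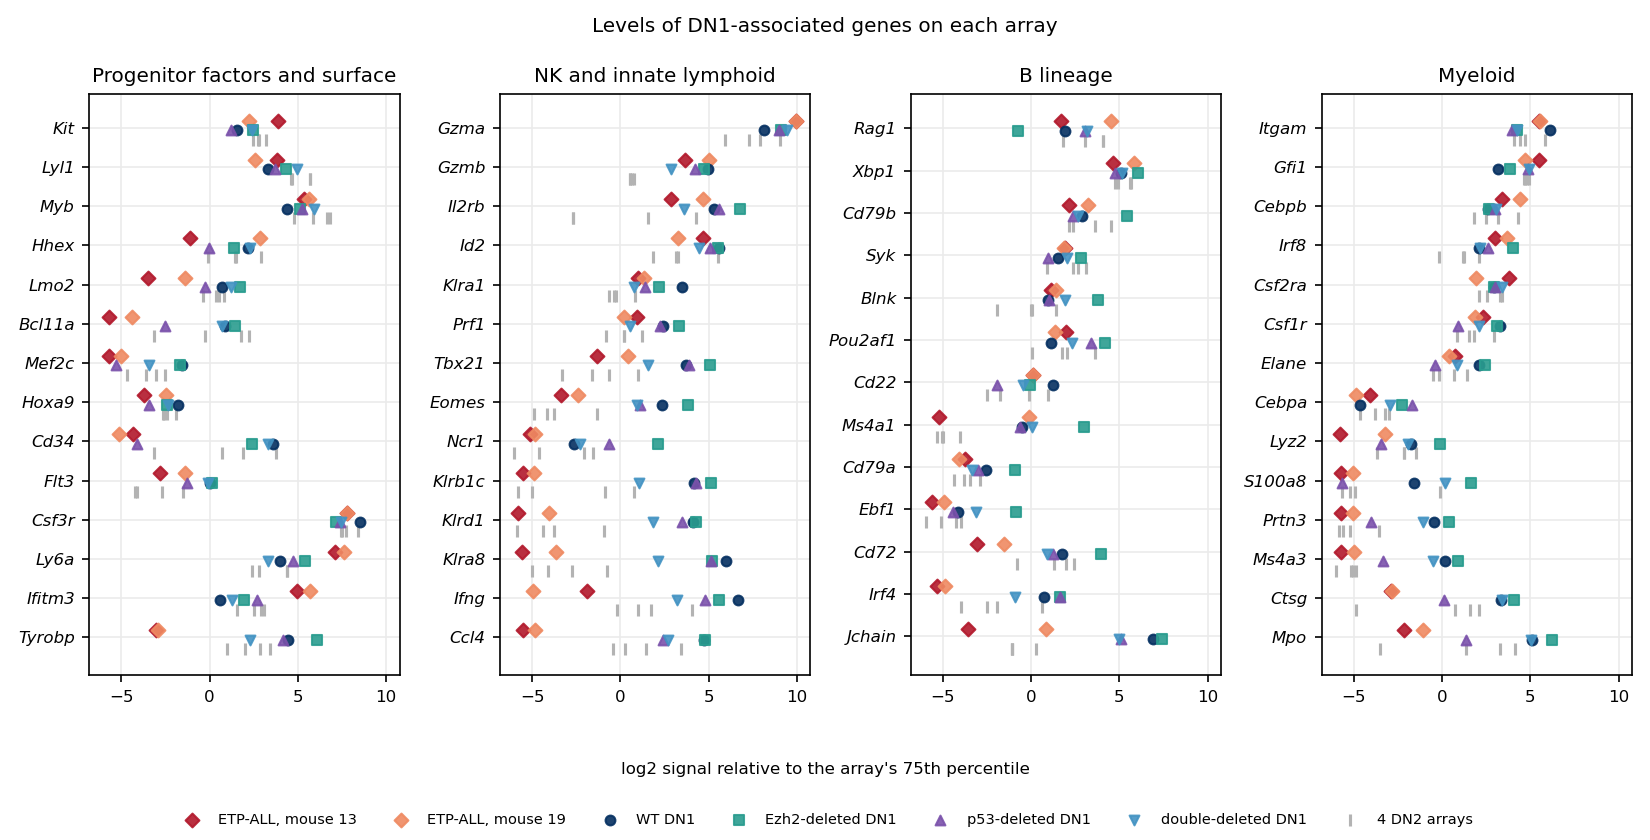
Level of genes of 4 kinds on every array, in log2 signal relative to the array's 75th percentile, with diamonds for the 2 ETP-ALL arrays, other filled symbols for the 4 DN1 arrays and grey ticks for the 4 DN2 arrays. Diamonds lie among or right of the DN1 symbols for Gzma, Gzmb, Ly6a, Ifitm3 and Itgam, and far left of them for Klra8, Klrd1, Tyrobp, Ccl4 and Jchain.

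No progenitor transcription factor was called. Of 28 listed, 26 were tested, 0 were called in either direction (limma, 5 at an unadjusted p under 0.05, all lower), and the median difference was -0.46 (-0.41 at bounds), or -1.01 to -0.20 when arrays were left out in turn (-1.01 without p53-deleted DN1, -0.98 without mouse 19, -0.20 without mouse 13). Of 23 DN1 genes, 13 were above background in both leukemias (56.5%, against 91.4% of all genes) and 4 in neither (17.4%, against 3.01%). Both leukemias lay at or above the lowest DN1 array for 11 (47.8%, against 65.2%) and below all DN1 arrays for 6 (26.1%, against 15%). With all 4 DN1 arrays above background, both leukemias detected 12 of 18 (66.7%, against 94.7% of all such genes). The median level over the list was -1.52 and -0.95 in the leukemias, against 0.77, 1.23, -2.50 and 0.97 in DN1 cells, and without the p53-deleted DN1 array, the lowest of the 6, the count of 11 became 6. Spi1, which encodes the myeloid and progenitor factor PU.1, and Mecom did not pass the filter.

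Myb, needed for the growth of progenitors, was 5.35 and 5.61 in the leukemias, against 4.40, 5.12, 5.22 and 5.91 in DN1 cells. Nfe2 was 2.91 and 3.20 against 1.57, 2.34, -0.01 and 2.94, and Zfpm1, a partner of GATA factors, was 4.59 and 4.45 against 3.84, 5.57, 4.93 and 5.03. Myc was 3.02 and 2.98 against 1.94, 2.85, 3.47 and 2.07. These 4 genes had adjusted p between 0.590 and 0.871, and the leukemias overlapped the DN1 arrays in each. Lyl1, a partner of LMO2 in stem cells, was 3.80 and 2.56 against 3.29, 4.34, 3.68 and 4.95 (adjusted p = 0.652).

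Bcl11a, a factor of lymphoid progenitors, was above background in neither leukemia, at -5.67 and -4.39, against 0.87, 1.43, -2.54 and 0.70 in DN1 cells (at least 12.2-fold lower, adjusted p = 0.0896). Lmo2, a stem cell gene that is oncogenic in T cells, was -3.51 and -1.42 in the leukemias, against 0.71, 1.73, -0.24 and 1.23 (difference -3.32 ± 0.76, SE; adjusted p = 0.112). In both genes the leukemias lay below all 4 DN1 arrays, and neither passed the test. Mef2c was above background in neither leukemia, with DN1 cells at -1.58, -1.66, -5.33 and -3.46 (at least 1.41-fold lower, adjusted p = 0.457). Hoxa9 was -3.69 and -2.50 against -1.77, -2.40, -3.42 and -2.35 (adjusted p = 0.763). Hhex was at -1.12 in mouse 13 and 2.86 in mouse 19, against 2.20, 1.36, -0.04 and 2.29 in DN1 cells.

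Progenitor surface and signalling genes went in both directions. Of 28 listed, 26 were tested, 1 was called lower (Tyrobp, given above) and 0 higher, while 9 were lower and 5 higher at an unadjusted p under 0.05, and the median difference was -0.63. Of 24 DN1 genes, 19 were above background in both leukemias (79.2%, against 91.4% of all genes). Both leukemias lay at or above the lowest DN1 array for 10 (41.7%, against 65.2%) and below all DN1 arrays for 10 (41.7%, against 15%). With all 4 DN1 arrays above background, both leukemias detected 19 of 22 (86.4%, against 94.7% of all such genes). Kit, the receptor for stem cell factor that marks early progenitors, was 3.88 and 2.24 in the leukemias, against 1.55, 2.44, 1.23 and 2.38 (adjusted p = 0.559). Flt3, a cytokine receptor of the earliest progenitors, was -2.84 and -1.42 against 0.01, 0.13, -1.30 and -0.08 in DN1 cells, and -4.12, -4.25, -1.49 and -2.67 in DN2 cells (adjusted p = 0.297). Kit in the leukemias therefore stood within or above the DN1 range, and Flt3 below every DN1 array.

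The genes with both leukemias above all 4 DN1 arrays were Ly6a, Ifitm1, Ifitm3, Socs2 and Cd24a (5 of 26 tested, against 9.34% of all features). Ifitm3, a membrane protein induced by interferon, was 4.94 and 5.70 in the leukemias, against 0.60, 1.97, 2.68 and 1.28 in DN1 cells, a difference of 3.69 ± 0.65 (SE) that just missed the threshold (adjusted p = 0.0520). Socs2, a feedback inhibitor of cytokine signalling, was 4.31 and 4.42 against -1.06, -0.07, -0.06 and 1.82 (difference 4.21 ± 0.76, SE; adjusted p = 0.0575). With Slamf1, a marker of blood stem cells, and without Cd24a, these genes also lay above all 4 DN2 arrays in both leukemias while being at or above the lowest DN1 array, which held for 5 of 24 DN1 genes of this list, for 0 of 23 progenitor transcription factors and for 6.27% of all DN1 genes.

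Cd34, a surface protein of stem cells and progenitors, was above background in neither leukemia and in 3 DN1 arrays, at -4.36 and -5.15 against 3.60, 2.42, -4.14 and 3.32 (difference -6.05 ± 2.02, SE; adjusted p = 0.282). The p53-deleted DN1 array, with the value nearest the leukemias, gave most of the spread. Csf2rb, the common receptor chain for GM-CSF, IL-3 and IL-5, was -4.21 and -4.41 in the leukemias, against 0.43, 1.84, -0.93 and -1.03 (adjusted p = 0.0633). Ccr7, a homing receptor that guides progenitors into the thymus, was 1.97 and 2.62 against 4.71, 5.42, 4.50 and 4.31 (adjusted p = 0.0807). Csf3r, the G-CSF receptor, was similar on all 6 arrays, at 7.76 and 7.81 against 8.52, 7.16, 7.36 and 7.44 (adjusted p = 0.933), and also on the DN2 arrays.

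Of 34 B lineage genes listed, 29 were tested, 2 were called lower (Jchain and Irf4; background 0.6%) and 0 higher, and 7 had an unadjusted p under 0.05, all lower. The median difference was -1.46, or -1.03 at bounds, and -1.64 to -0.62 when arrays were left out (-0.62 without mouse 13, -0.64 without Ezh2-deleted DN1). Of 26 DN1 genes, 16 were above background in both leukemias (61.5%, against 91.4% of all genes) and 5 in neither (19.2%, against 3.01%). Both leukemias lay at or above the lowest DN1 array for 7 (26.9%, against 65.2%) and below all DN1 arrays for 7 (26.9%, against 15%). With all 4 DN1 arrays above background, both leukemias detected 16 of 24 (66.7%, against 94.7% of all such genes). Jchain, the joining chain of secreted antibodies that is also active in lymphoid progenitors, was -3.60 and 0.86 in the leukemias, against 6.90, 7.42, 5.08 and 4.98 in DN1 cells, and fell by 7.47 ± 1.25 (SE; adjusted p = 0.0489). Irf4, a factor of activated B and T cells, was -5.32 and -4.89 against 0.74, 1.65, 1.65 and -0.94 (at least 19.3-fold lower, adjusted p = 0.0255). For both genes the groups did not overlap, but Irf4, above background in neither leukemia, passed the filter through DN1 cells alone. On the DN2 arrays Jchain was at -1.11, -1.11, 0.28 and -1.11, between the 2 leukemias, and Irf4 at -3.96, -1.97, 0.60 and -2.515. The list median was -2.23 and -1.35 in the leukemias, against -0.29, 1.24, -1.37 and -0.48 in DN1 cells. In DN2 cells it was -1.90, -1.97, -2.285 and -2.09, and the difference from DN2 was not tested.

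Defining markers of B cells were highest on the Ezh2-deleted DN1 array. Ms4a1 (CD20) was -5.22 and -0.13 in the leukemias, against -0.51, 2.98, -0.63 and 0.04. Cd79a was -3.76 and -4.09 against -2.57, -0.90, -3.01 and -3.37, and the leukemias lay below all DN1 arrays by less than the range among these. Ebf1, the factor that specifies B cells, was above background on 2 DN1 arrays and in neither leukemia, while Pax5 did not pass the filter. Ms4a1, Cd79a and Ebf1 were above background on no DN2 array. The summed signal of the list was 47.6 and 109 in the leukemias, against 190, 387, 101 and 108 in DN1 cells, highest on the Ezh2-deleted array. Without its brightest member on each array, it was 22.46 and 51.83 against 70.59, 215.3, 67.35 and 72.45. That member was Xbp1 in the leukemias and in double-deleted DN1 cells, and Jchain on the other DN1 arrays. These sums leave out unlike genes, so they cannot place the leukemias below DN1 cells. The part of B cells in these differences was not tested.

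Other members of the list lay at or above the lowest DN1 array in both leukemias. Syk, a kinase of the pre-B and early T cell receptors, was 1.91 and 1.83 in the leukemias, against 1.5, 2.81, 0.94 and 2.04. Rag1, of the recombinase, was 1.71 and 4.52 against 1.90, -0.78, 3.06 and 3.17. Pou2af1, a B cell coactivator, was 1.99 and 1.35 against 1.12, 4.17, 3.38 and 2.29, and Blnk, the adaptor below SYK, was 1.096 and 1.388 against 0.96, 3.77, 0.998 and 1.90. These 4 had adjusted p between 0.688 and 0.984. Bank1 was the member with both leukemias at DN1 levels and above all 4 DN2 arrays, at -2.18 and -1.35 against -2.38, -0.05, -2.10 and -3.14 in DN1 cells. That is 1 of 26 DN1 genes of the list, against 6.27% of all DN1 genes.

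No myeloid gene was called in either direction by limma among the 35 tested of 46 listed, with 9 lower and 1 higher at an unadjusted p under 0.05. The median difference was -0.83, or -0.60 at bounds, and -1.24 to -0.38 when arrays were left out (-0.38 without WT DN1). Of 29 DN1 genes, 17 were above background in both leukemias (58.6%, against 91.4% of all genes) and 9 in neither (31.0%, against 3.01%). With all 4 DN1 arrays above background, both leukemias detected 16 of 18 (88.9%, against 94.7% of all such genes), and 0 were detected in neither. Both leukemias lay at or above the lowest DN1 array for 14 of the 29 (48.3%, against 65.2%) and below all DN1 arrays for 8 (27.6%, against 15%). Without the p53-deleted DN1 array the 14 became 8. Mpo, which encodes myeloperoxidase, was -2.16 and -1.09 in the leukemias, against 5.11, 6.24, 1.37 and 5.06 in DN1 cells (difference -6.07 ± 1.23, SE; adjusted p = 0.0807). Ctsg, the granule protease cathepsin G, was -2.91 and -2.82 against 3.33, 4.07, 0.14 and 3.38 (adjusted p = 0.0584). Both genes were lowest in DN1 cells on the p53-deleted array and lower still in both leukemias. Prtn3 and Ms4a3 were above background in neither leukemia.

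Irf8, a factor of monocytes and dendritic cells, was 3.00 and 3.68 in the leukemias, against 2.08, 4.02, 2.62 and 2.15 in DN1 cells and -0.17, 1.27, 2.09 and 1.17 in DN2 cells. With Ms4a6c it was 1 of 2 among the 29 myeloid DN1 genes at DN1 levels and above all DN2 arrays, near the 6.27% of all DN1 genes. Above the DN2 arrays other than the p53-deleted one were 3 of the 29 (against 8.89% of all DN1 genes). Cebpb was 3.38 and 4.43 against 2.62, 2.64, 2.99 and 3.04, above all DN1 arrays, and Gfi1, a repressor in early T and myeloid cells, was 5.50 and 4.70 against 3.16, 3.87, 4.87 and 4.93 (adjusted p = 0.450 and 0.656). Csf1r, the M-CSF receptor, was 2.30 and 1.86 against 3.26, 3.13, 0.90 and 2.10, with probes of the gene that disagree by over 0.5.

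The defining myeloid markers did not act as a group. Itgam (CD11b) was 5.49 and 5.58 in the leukemias, against 6.10, 4.26, 3.95 and 4.26 in DN1 cells and 5.84, 4.43, 4.09 and 4.71 in DN2 cells, and its probes disagree too. Lyz2, the lysozyme of macrophages, was above background in neither leukemia, at -5.77 and -3.26 against -1.78, -0.13, -3.44 and -1.91, and neither was Cebpa, the master factor of granulocytes, at -4.06 and -4.87 against -4.66, -2.26, -1.72 and -2.95 (adjusted p = 0.346 and 0.544). The summed signal of the list was 386 and 352 in the leukemias, against 595, 675, 264 and 333 in DN1 cells, so the ranges overlapped. Without its brightest member on each array, it was 169.6 and 127.7 against 227.4, 345.4, 98.73 and 159.7. That member was Csf3r, except in Ezh2-deleted DN1 cells, where it was Slpi.

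**Figure D4:**
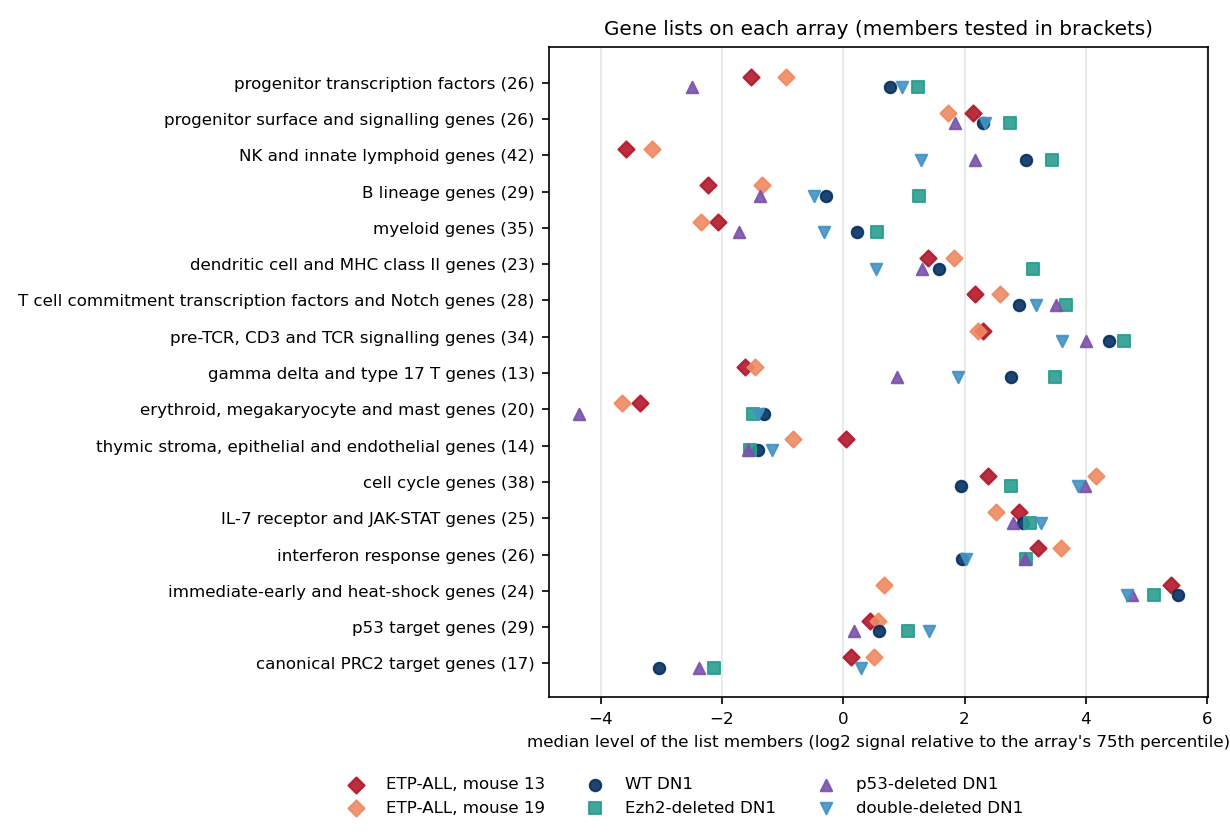
Median level over the tested members of each gene list on each array, in log2 signal relative to the array's 75th percentile, with diamonds for the 2 ETP-ALL arrays and other symbols for the 4 DN1 arrays. The NK list sits at -3.58 and -3.15 in the leukemias, against 1.29 to 3.45 in DN1 cells, and the p53-deleted DN1 array is lowest for progenitor factors and for erythroid genes.

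Among other cells that the DN1 gate can hold, those of gamma delta and type 17 T cells made up 1 list. Of 18 listed, 13 were tested, 2 were called lower (background 0.6%) and 0 higher, 9 had an unadjusted p under 0.05, all lower, and the median difference was -3.94, or -2.44 at bounds. Neither gene was called with slide as a random block. Cxcr6, a homing receptor of NK and innate-like T cells, was -0.73 and 0.14 in the leukemias, against 5.75, 6.16, 6.16 and 4.41 in DN1 cells, and fell by 5.91 ± 0.63 (SE; adjusted p = 0.0164). Ccr6, a receptor of type 17 cells, was -3.01 and -2.36 against 1.85, 3.49, 0.88 and 1.75 (difference -4.68 ± 0.72, SE; adjusted p = 0.0402). In both genes the non-leukemic DN2 arrays were split, with 4.22 and 7.35 for Cxcr6 in Ezh2-deleted and p53-deleted cells and -1.85 and -1.22 in WT and double-deleted cells. The summed signal of the list was 27.8 and 15.1 in the leukemias, against 199, 402, 116 and 157 in DN1 cells, and the part of such cells in the result was not tested.

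Dendritic cell and MHC class II genes had 23 tested members, 0 called, a median of -0.28, and 4 lower and 1 higher at an unadjusted p under 0.05. Siglech, a marker of plasmacytoid dendritic cells, was 8.58 and 8.57 in the leukemias, against 8.83, 6.68, 7.03 and 7.93 in DN1 cells and 8.70, 6.60, 7.02 and 7.92 in DN2 cells, with probes that disagree. H2-Ab1, a chain of MHC class II, was 4.88 and 5.93 against 4.62, 6.83, 4.91 and 4.42 (adjusted p = 0.943). Itgax (CD11c) was measured in the leukemia of mouse 19 alone, because its value is missing on the other array, and was below background there at -4.95, against 1.55, 3.68, 1.29 and -1.68 in DN1 cells.

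Of 20 tested erythroid, megakaryocyte and mast cell genes, 2 were called lower, the carbonic anhydrase gene Car2 (at least 16.9-fold) and the eosinophil granule gene Prg2 (at least 18.3-fold, both adjusted p = 0.0255), against a background of 0.6%. Both were above background in neither leukemia and passed the filter through DN1 cells alone, so their number supports nothing by itself. Prg2 was above background on no DN2 array, and Car2 on all 4. With slide as a random block neither was called. Their list median was -0.64, or 0.00 at bounds, and -1.04 to -0.12 when arrays were left out (-0.12 without WT DN1). Gata1, the erythroid factor, was 1.83 and 2.04 in the leukemias, against -0.49, -0.26, -0.07 and 0.20 (difference 2.09 ± 0.43, SE; adjusted p = 0.0817), above every DN1 array. Genes of stroma and epithelium had 0 of 14 tested members called, a median of 0.65 (1.74 without mouse 19 and 0.37 without mouse 13), and 4 higher and 1 lower at an unadjusted p under 0.05. Epcam, an epithelial adhesion gene, was 0.78 and 0.80 in the leukemias, against -2.83, -1.81, -4.09 and -3.06 (adjusted p = 0.0501), and the keratin gene Krt18 was 5.42 and 4.46 against 0.04, 1.87, -0.34 and 2.78 (adjusted p = 0.126). The summed signal of the stroma list was 110 and 56.2 in the leukemias, against 30.6, 16.95, 42.3 and 42.0, while Col1a1, a defining marker, was below background in both leukemias.

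T lineage genes show where the leukemias lie beside DN1 cells. Of 28 T cell commitment factors and Notch genes, all tested, 0 were called (7 lower and 0 higher at an unadjusted p under 0.05), with a median of -0.61. Tcf7, the first T lineage factor, was 4.04 and 4.82 in the leukemias, against 3.95, 4.67, 5.06 and 4.37 in DN1 cells, and Bcl11b, the factor of T commitment, was 3.95 and 4.26 against 4.12, 5.71, 4.57 and 4.78. Gata3 was 6.87 and 4.91 against 5.26, 5.12, 4.69 and 5.21, and Notch1 was -0.84 and -0.32 against -0.73, -0.89, -1.09 and -1.52. These 4 overlapped the DN1 arrays, with adjusted p between 0.671 and 0.969. Lef1, a relative of Tcf7, was -0.63 and 3.71 against 5.47, 6.05, 6.59 and 5.79, and the Notch target Dtx1 was -0.98 and 1.31 against 3.44, 5.56, 3.70 and 3.66 (adjusted p = 0.128 and 0.0917), both lower in the leukemias than on every DN1 array.

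Among 34 pre-TCR, CD3 and TCR signalling genes, all tested, 3 were called lower and 1, Il2ra, higher (background 0.6% and 0.207%), and the median was -1.11. The sort by CD25 set the call of Il2ra. At an unadjusted p under 0.05 (limma), 15 were lower and 1 higher. Both leukemias lay below all 4 DN1 arrays for 15 of the 34 (44.1%, against 15% of all DN1 genes). Cd5, which dampens T cell receptor signals, was 1.58 and 2.23 in the leukemias, against 5.45, 6.23, 6.90 and 5.27 in DN1 cells and 3.15, 3.93, 6.02 and 3.53 in DN2 cells (difference -4.06 ± 0.58, SE; adjusted p = 0.0304). Its relative Cd6 was 1.70 and 2.54 against 5.76, 6.52, 6.05 and 5.37 (difference -3.81 ± 0.51, SE; adjusted p = 0.0255). The leukemias were below all DN1 and all DN2 arrays in both genes. Cd8a was called lower as well, by at least 6.07-fold (adjusted p = 0.0456), in cells that were sorted as CD8-. Without either leukemia, without WT DN1, without the dim slide, or with slide as a random block, these genes were not called.

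Groups of genes tied to cell state showed few calls. Of 38 cell cycle genes 0 were called, and 0 had an unadjusted p under 0.05 in either direction, with a median of 0.10, which lay between -0.73 and 0.87 when each array was left out in turn. Of 25 genes of the JAK-STAT pathway and the IL-7 receptor 0 were called (6 lower and 2 higher at an unadjusted p under 0.05, median -0.40). Il7r was 4.82 and 3.42 in the leukemias, against 4.90, 4.62, 5.06 and 4.10 (adjusted p = 0.765), and Cish, a STAT5 target, was 5.83 and 4.72 against 2.93, 2.89, 1.72 and 3.83 (adjusted p = 0.174). Interferon response genes had 0 of 26 called and a median of 0.59, with 5 higher and 1 lower at an unadjusted p under 0.05, and 14 of the 26 had both leukemias at or above the lowest DN1 array and above all 4 DN2 arrays (against 6.27% of all DN1 genes). Gbp2, a guanylate-binding protein, was 4.57 and 6.16 in the leukemias, against 2.35, 3.92, 3.57 and 2.12 in DN1 cells and 1.92, 3.28, 3.61 and 1.03 in DN2 cells (adjusted p = 0.219).

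The genes of p53 and PRC2 were read against DN1 cells of 4 genotypes. Among 29 p53 targets 0 were called (7 lower and 1 higher at an unadjusted p under 0.05, median -0.13). Pmaip1 (Noxa), which promotes apoptosis, was 0.33 and -0.33 in the leukemias, against 2.15, 2.85, 2.63 and 2.90 (adjusted p = 0.0519). Among 17 tested PRC2 targets of 35 listed 0 were called (3 higher and 1 lower unadjusted), and the median was 1.77. Bex1 was 7.35 and 6.66 in the leukemias, against -2.99, 2.14, 3.29 and 6.48, and Cdkn2b was 3.20 and 3.46 against -2.85, -2.13, 1.44 and 1.73. The median level of this list was 0.13 and 0.50 in the leukemias, against -3.05, -2.13, -2.38 and 0.29 in DN1 cells, so the double-deleted DN1 array, which has the genotype of the leukemias, was the nearest.

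Among named genes called higher, those with the largest rise were Shisa3, Akr1c19, Pitx1, Il15, Lmo7, Gtsf1, Nrn1, Galnt18, Il2ra and Limch1. The rise of Il2ra was set by the sort, as given above. Shisa3 was 1.71 and 0.16 in the leukemias and above background on no DN1 or DN2 array (at least 22.6-fold higher than in DN1 cells, adjusted p = 0.0127). Pitx1, a homeobox gene of hindlimb and pituitary development, was 1.35 and -0.35 and likewise undetected in non-leukemic DN1 and DN2 cells (at least 16.7-fold higher, adjusted p = 0.0127). Il15, the cytokine that NK cells depend on, was 2.96 and 0.76 in the leukemias, against -2.92, -5.19, -5.24 and -2.91 (difference 5.93 ± 0.95, SE; adjusted p = 0.0432). Lmo7 was 2.18 and 2.91 against -3.65, -2.46, -5.49 and -1.85, and Nrn1, which encodes neuritin, was 4.02 and 1.87 against -2.89, -3.59, -2.09 and -1.65 (adjusted p = 0.0456 and 0.0271). In all of these the leukemias stood above every DN1 array. Shisa3, Pitx1, Galnt18 and Limch1 were above background on no DN1 array. They passed the filter through the leukemias alone and had to differ in this direction.

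Of the 10 named genes with the largest fall among those called lower, 9 are in the NK list and the other is Klra16, given above. The NK list holds 42 of the 13507 named genes tested. All of the 10 except Ifng were above background in neither leukemia and passed the filter through DN1 cells alone. Klra16, Klra8, Klra7 and Klra9 are close copies, and a probe may read more than 1 of them. The count therefore supports nothing by itself. Among the further calls, 2 were chosen after their values were seen. Fasl, the death ligand of NK and cytotoxic T cells, was above background in neither leukemia and at 3.17, 2.83, 2.83 and 1.05 in DN1 cells (at least 62.5-fold lower, adjusted p = 0.0127). Hes5, a Notch target, was -2.64 and -3.20 in the leukemias, against -0.35, -0.02, 0.16 and 0.12, and fell by 2.90 ± 0.43 (SE; adjusted p = 0.0352). The heat-shock gene Hspa1a, the only call among 24 immediate-early and heat-shock genes, was at least 39.8-fold lower (adjusted p = 0.0271). The median difference of this list was -1.76, with 10 lower and 0 higher at an unadjusted p under 0.05 (limma). Both leukemias lay below all DN1 arrays for 11 of the 24 (45.8%, against 15% of all DN1 genes). The list median was 5.41 in mouse 13 and 0.67 in mouse 19, against 5.52, 5.12, 4.76 and 4.68 in DN1 cells.

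The 2 leukemias were also set against each other. Of 24 immediate-early and heat-shock genes, 19 were higher in mouse 13 than in mouse 19, 15 of them by 2 or more, with a median difference of 2.45, against -0.03 over 13479 named genes. Fos, the prototype of genes induced within minutes of a stimulus, was 6.64 in mouse 13 and -3.24 in mouse 19, against 6.99, 5.87, 4.62 and 6.39 in DN1 cells, and Fosb was 5.43 and -4.30 against 5.79, 5.28, 5.10 and 4.56. Egr1 was 4.84 and -2.20 against 4.48, 3.998, 3.53 and 3.89. In these 3 genes mouse 13 was within or above the range of the DN1 arrays and mouse 19 below all of them.

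Cell cycle genes ran the other way, with all 38 higher in mouse 19 than in mouse 13 and a median difference of -1.67. Mki67, a marker of dividing cells, was 4.63 in mouse 13 and 5.89 in mouse 19, against 3.67, 5.20, 5.71 and 5.87 in DN1 cells. Aurka, a mitotic kinase, was 2.65 and 4.78 against 1.93, 2.19, 3.84 and 3.98. WT DN1 cells had the lowest list median of the 6 arrays, at 1.94, against 2.40 and 4.18 in the leukemias. Of 29 B lineage genes, 22 were higher in mouse 19, 7 of them by 2 or more, and of 26 progenitor transcription factors 2 were higher by 2 or more in mouse 13 and 5 in mouse 19. Each leukemia has 1 array, so no test was made of these differences, which together with others left 1556 features (6.28%) at least 2 apart between the leukemias.

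**Figure D5:**
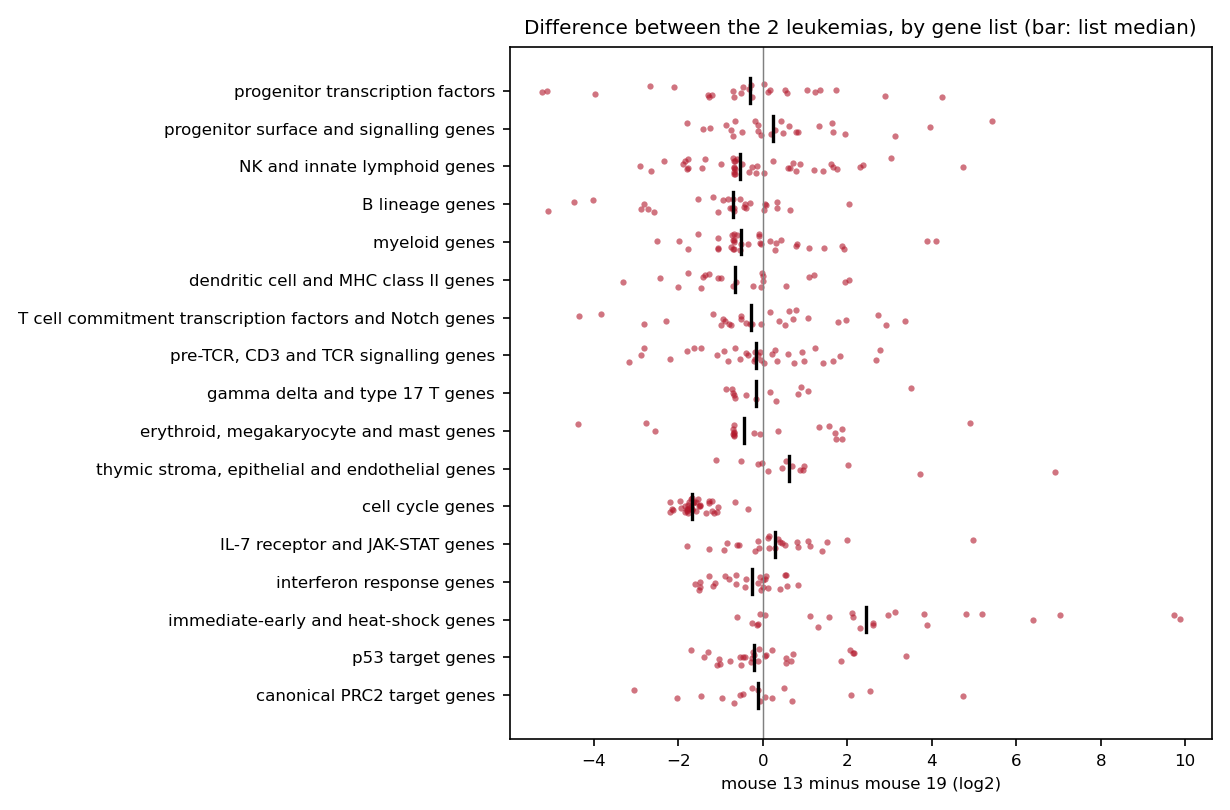
Level in the leukemia of mouse 13 minus that in mouse 19 for each tested gene of each list (points, log2), with a bar at the list median and a line at 0. The immediate-early and heat-shock list lies mostly right of 0 with a median of 2.45, and every cell cycle gene lies left of 0 with a list median of -1.67.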

How the data were processed

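The comparison uses 6 of 14 one-colour Agilent arrays, each made with the dye Cy3 and 20 ng of total RNA. The deposited intensities, per the file headers, were background-subtracted and detrended within each array by Feature Extraction 10.7.1.1, with no scaling between arrays. The deposited value table, whose signal was scaled per array by the authors with a method not given in the sources used here, was linear and uncentred, with array medians of 0.065 to 0.105 and a 75th percentile of 1.002 to 1.004, and served as an alternative.

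Processed intensities were taken as log2 minus the log2 of the array's 75th percentile, spots of a probe were averaged, control and outlier spots were left out, and 57 features lacked a value on an array. RefSeq accessions (GRCm38.p6 table) gave 27656 of 55681 probes 1 symbol, 0 several and 28025 none. A gene with several probes is represented by the probe with the highest mean over the 6 arrays, and the probes of 109 genes disagreed in direction by over 0.5. The 24779 features that 2 or more of the 6 arrays measured well above background were fitted with limma 3.58.1 (R 4.3.3) as 2 group means, with Benjamini-Hochberg adjustment over all of them and a threshold of 0.05. The calculation was tested on simulated data with the means and spreads of the DN1 arrays. There 15 of 50 true falls and 27 of 50 true rises of 4 (log2) were called. Of true changes of 2, 2 of 50 were called in each direction, and of 24579 unchanged features 2. A gene that was not called may thus still differ. The number of arrays limits the precision, with 4 residual degrees of freedom.

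The members and gene lists were chosen with earlier results of these data known. Named genes were a fixed set of targets and markers, up to 4 called members of each list in each direction, up to 4 members of the progenitor, NK, B lineage and myeloid lists detected and at DN1 levels, and the 10 genes with the largest difference each way; further list members and Ddx3y are examples chosen after their values were seen. Alternatives were normexp (on median signals, since mean signals are not used here), other scalings, filters and fits, the deposited table, slide as a random block, and leaving out arrays. Each label gives replicate 1. On the tissue the labels differ, with bone marrow named in the treatment text and thymus elsewhere. The result for 1 gene is not reported here.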

Additional observations from a re-analysis of the deposited data

Results flagged for a closer look

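In 6 of 95 results tested, 1 of the 4 DN1 arrays lay far from the other 3 (Dixon's test), where chance gives about 5% of groups. The p53-deleted array stood apart in the median level of progenitor transcription factors, at -2.4994 with the next array at 0.7698, and of erythroid, megakaryocyte and mast genes, at -4.3547 with the next at -1.4905. It was also apart for Flt3, the cytokine receptor of early progenitors, at -1.3033. The WT array stood apart for Itgam (CD11b), at 6.0982. The Ezh2-deleted array stood apart for Shisa3, at -5.3464, and for Gtsf1, at -3.2068, 2 genes that were higher in both leukemias than on every DN1 array. Shisa3 was above background on no DN1 array, so its gap is one between values below background, and Gtsf1 was above background on 1. Each genotype has 1 DN1 array, so genotype and array cannot be told apart.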

How the results depend on the processing

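Against 204 features called, there were 366 with normexp, 100 with the 75th percentile taken over probes above background on all 6 arrays, 69 among features above background on all 6, 4204 in an additive fit of all 14 arrays, 992 in that fit against double-deleted DN1 only, 0 with slide as a random block (1434 at an unadjusted p under 0.05) and 81 against WT and double-deleted DN1 only, an alternative chosen after seeing the data. Leaving out 1 array at a time gave 0 to 333 calls: 4 without mouse 13, 7 without mouse 19, 0 without WT DN1 (3778 at an unadjusted p under 0.05), 105 without Ezh2-deleted, 253 without p53-deleted and 333 without double-deleted DN1. Quantile normalization, no filter, the deposited table and the mean over probes gave 158, 163, 201 and 171. The median of the NK list was -2.63 with normexp and -1.815 among features above background on all 6 arrays, and -4.59 to -3.63 when arrays were left out. That of progenitor surface genes was -0.7894 to -0.0583 when arrays were left out, that of IL-7 receptor genes -0.72 to -0.30, of dendritic cell genes -0.74 to 0.00, of immediate-early genes -3.69 to -0.52, of interferon genes 0.33 to 0.88 and of p53 targets -0.32 to -0.13. The count of genes at DN1 levels was 6 to 11 for progenitor transcription factors (6 without p53-deleted DN1), 3 to 6 for NK genes (3 without double-deleted DN1) and 8 to 14 for myeloid genes (8 without p53-deleted DN1). Of 31 called named genes, 31 were lost with slide as a random block, without mouse 13 and without WT DN1, and 29 without mouse 19, while 0 reversed in any alternative run. The cause of these changes was not tested, except that fewer arrays or features entered some fits. No paired analysis was possible because every label gives replicate 1 and the groups share no pair of numbers. Normexp moved the median of all features to -0.10.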
